A study of Mus musculus with 12 samples.

Results

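The regions described here are stretches of open chromatin that gained a peak in hepatocytes of mice fed DDC, in both genotypes of the study. They numbered 2240 of 292576 merged regions in all. They made up 1.62% of the 138502 regions that were in at least 3 of the 12 peak lists. They were chosen by the fold enrichment of the deposited peaks: a region needed a peak among the strongest of its library in all 6 DDC libraries and in at most 1 of the 6 standard-diet libraries. The same number of strongest peaks was kept in every library, just under the 137004 of the shortest list. The diet contrast therefore chose the regions, and every difference by diet below is a description, with no test.

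The libraries are ATAC-seq libraries, 1 per mouse, in which a transposase cuts DNA where it is not packed, and a peak marks a site that was cut more often than its surroundings. Alb-Cre/FBXL5F/F mice carry Fbxl5 alleles that Cre, driven by the albumin promoter of hepatocytes, can delete, and they are called Fbxl5-deleted here. FBXL5F/F mice carry the same alleles without Cre and are called controls. Each genotype received a diet with 0.1% DDC for 2 weeks or a standard diet, which gives 4 groups of 3 mice. The hepatocytes were obtained by collagenase perfusion of the liver, which can carry other liver cells along, and in such a preparation more cells of a type and more open chromatin per cell cannot be told apart. The labels give neither the ages of the mice nor the extent of the deletion.

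DDC is a porphyrin-forming compound that blocks the insertion of iron into heme, so that porphyrin plugs the small bile ducts, hepatocytes are injured and duct-like cells expand. FBXL5 is the substrate-binding part of a ubiquitin ligase that removes IRP2, a protein that raises iron uptake, so FBXL5 limits the free iron of the hepatocyte. Chromatin that opens on injury often lies far from promoters, at enhancers, which bind factors such as AP-1, a dimer of FOS and JUN proteins made soon after stress and growth signals.

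The sequences that can be shown are those of promoters, the 300 bases from 250 before to 50 after a gene's start. Only 54 of the 2240 regions lay on such a window, and they touched 59 windows, 37 of them of protein-coding genes. For 39 of the 54 the summit of the peak itself lay in the window, and the others reached the window only with their flank. Shown here are 6 of the 8 protein-coding windows that held the AP-1 letters TGANTCA, and that of Timp1, which held none and which encodes an inhibitor of matrix proteases. These 7 were chosen after their values were seen. Capitals mark AP-1 letters, and each sequence is from RefSeq (GRCm38.p6, the assembly of mm10), written 5′ to 3′ on the strand of its gene.
Fblim1, chr4:141606003-141606302, minus strand: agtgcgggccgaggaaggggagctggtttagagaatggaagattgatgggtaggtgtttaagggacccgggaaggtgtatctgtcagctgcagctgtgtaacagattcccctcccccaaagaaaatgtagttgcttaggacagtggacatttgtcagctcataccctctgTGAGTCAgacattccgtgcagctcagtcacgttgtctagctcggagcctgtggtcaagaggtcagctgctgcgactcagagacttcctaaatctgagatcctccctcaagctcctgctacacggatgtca
Agpat4, chr17:12119034-12119333, plus strand: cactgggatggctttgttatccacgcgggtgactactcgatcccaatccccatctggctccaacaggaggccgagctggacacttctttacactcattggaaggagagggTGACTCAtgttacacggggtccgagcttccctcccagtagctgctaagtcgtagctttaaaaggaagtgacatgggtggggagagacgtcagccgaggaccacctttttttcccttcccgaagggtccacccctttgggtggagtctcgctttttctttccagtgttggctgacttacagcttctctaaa
Lipn, chr19:34067108-34067407, plus strand: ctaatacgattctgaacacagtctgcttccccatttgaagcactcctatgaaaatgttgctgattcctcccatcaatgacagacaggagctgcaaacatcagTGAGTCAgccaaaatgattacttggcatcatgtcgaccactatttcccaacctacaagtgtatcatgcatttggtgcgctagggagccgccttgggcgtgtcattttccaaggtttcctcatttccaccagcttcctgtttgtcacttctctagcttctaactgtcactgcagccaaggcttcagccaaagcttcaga
Plet1, chr9:50494275-50494574, plus strand: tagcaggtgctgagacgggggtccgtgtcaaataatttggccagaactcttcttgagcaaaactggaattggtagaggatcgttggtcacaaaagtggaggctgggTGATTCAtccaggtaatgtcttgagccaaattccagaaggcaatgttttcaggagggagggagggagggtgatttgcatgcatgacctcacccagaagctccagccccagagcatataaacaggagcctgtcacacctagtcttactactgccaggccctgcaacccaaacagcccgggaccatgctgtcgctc
Adgrg1, chr8:94984149-94984448, plus strand: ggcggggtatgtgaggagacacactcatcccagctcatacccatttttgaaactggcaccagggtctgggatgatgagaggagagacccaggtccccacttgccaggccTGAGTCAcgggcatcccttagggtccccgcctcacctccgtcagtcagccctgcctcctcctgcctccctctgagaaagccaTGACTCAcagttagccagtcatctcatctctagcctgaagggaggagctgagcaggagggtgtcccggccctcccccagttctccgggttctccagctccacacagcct
Btbd11, chr10:85598161-85598460, plus strand: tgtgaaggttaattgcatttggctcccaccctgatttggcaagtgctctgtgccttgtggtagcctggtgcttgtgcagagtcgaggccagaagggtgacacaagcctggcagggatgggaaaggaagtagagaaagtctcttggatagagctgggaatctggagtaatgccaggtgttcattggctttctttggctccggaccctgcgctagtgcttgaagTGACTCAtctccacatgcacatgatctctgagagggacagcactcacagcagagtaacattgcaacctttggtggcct
Timp1, chrX:20869916-20870215, plus strand: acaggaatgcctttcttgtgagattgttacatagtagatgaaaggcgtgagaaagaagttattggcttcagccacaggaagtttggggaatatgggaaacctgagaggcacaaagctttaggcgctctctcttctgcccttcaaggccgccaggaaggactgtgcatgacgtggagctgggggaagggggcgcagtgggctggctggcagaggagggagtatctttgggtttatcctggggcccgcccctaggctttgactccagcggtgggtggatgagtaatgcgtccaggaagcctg

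In these windows the AP-1 letters lay 14.5 to 92.5 bp from the summit of the peak, taking the nearest where there were several. In the Fblim1 window, of a gene for a filamin-binding protein of cell-matrix contacts, they were centred 77 bases before the start and 26 bp from the summit of the peak. In that of Agpat4, an acyltransferase gene of phospholipid synthesis, the distance was 17.5 bp, and in that of Btbd11 it was 14.5 bp. In the window of Adgrg1, an adhesion receptor gene, the motif occurs at more than 1 place and the nearest was 26.5 bp from the summit. Lipn, a lipase gene, and Plet1, which encodes a surface protein, had distances of 50.5 and 92.5 bp. Summits here are medians over the 6 DDC libraries. In all, 13 regions lay on windows with AP-1 letters. For 12 of them the letters were under the region itself, for 9 within 50 bp of the summit and for 12 within 100 bp, with a median distance of 26.5 bp.

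Fblim1 had fold enrichments of 6.95, 10.2 and 7.79 in Fbxl5-deleted and 6.13, 9.60 and 6.2 in control DDC libraries. Fold enrichment is the height of a peak over the background, as the authors' peak caller gave it. On the standard diet its only peaks were 2.45 in Fbxl5-deleted library 1 and 2.56 in control library 1, so the diets did not overlap. Agpat4 had 6.27, 3.74 and 4.92 in Fbxl5-deleted and 9.18, 7.0 and 6.47 in control DDC libraries, with peaks of 2.45 in Fbxl5-deleted library 1 and 2.64 in control library 2 on the standard diet. Adgrg1 had 4.34, 4.20 and 4.43 in Fbxl5-deleted and 6.16, 5.69 and 3.02 in control DDC libraries, and no standard-diet library listed a peak there. Timp1 had 3.37, 3.74 and 5.91 in Fbxl5-deleted and 3.38, 5.69 and 3.88 in control DDC libraries, against 1 peak of 2.29 in Fbxl5-deleted standard-diet library 3.

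Of 18 motifs, AP-1 was found at the promoters of the most DDC-gained regions. Each motif was searched on both strands. Some genes have several annotated starts a few bases apart, so a site can be counted in more than 1 window, and counts by region are given too. AP-1 letters were in 14 of the 59 windows (23.7%), against 4.75% of the 13638 promoters under regions in all 12 lists and 7.85% of all 32619 promoters. By region they were at 13 of 54 (24.1%), against 594 of the 10554 regions in all 12 lists that lay on a promoter (5.63%). The NRF2 motif, TGACNNNGC, which can overlap AP-1 letters, was in 23.7% of windows, against 14.3% and 12.4%, but by region at 11 of 54 (20.4%), against 16%. The ETS letters CCGGAA ran the other way, at 3.39% against 27% and 15.0%, and so did the KLF letters GGGCGTG, at 6.78% against 15.3% and 8.5%. A full NF-kB site was in 3 windows, all of them starts of Gm31619 over the same region, so by region it was at 1 of 54 (1.85%), against 1.60%. TEAD letters (GGAATG) were in 15.3%, against 11.9% and 14.6%. Full HNF1 and FXR sites, in 0.462% and 0.0587% of promoters under regions in all 12 lists, were found in none of the 59 windows. A match is a description and not a site of binding.

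**Figure D1:**
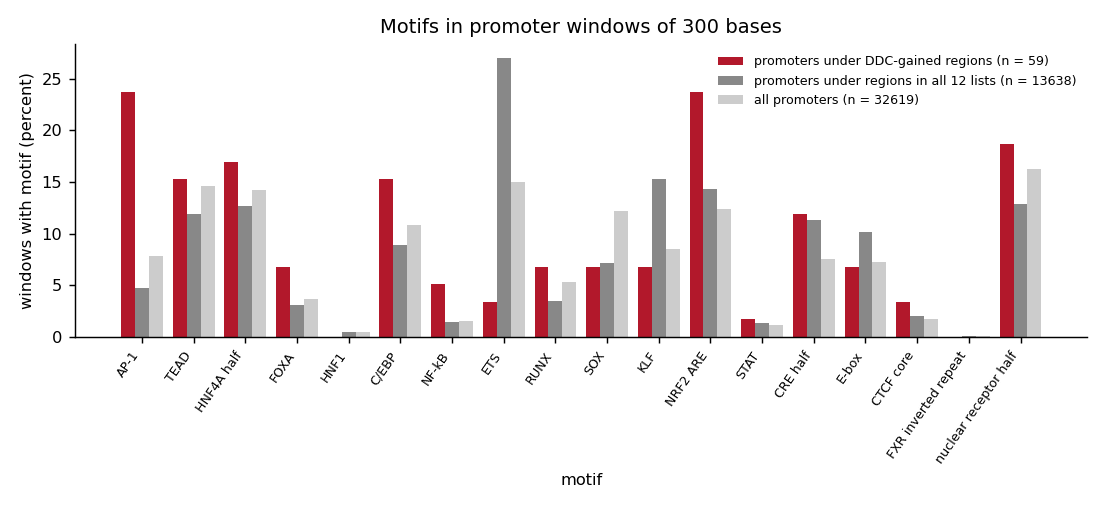
Share of promoter windows (percent, vertical axis) that hold each of 18 motifs, with starts a few bases apart counted each, for 59 windows under the DDC-gained regions (red), 13638 under regions in all 12 lists (dark grey) and all 32619 (light grey). AP-1 stands at 23.7% in red and 4.75% in dark grey, and ETS at 3.39% and 27%.

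The base composition of the windows differed too. Those of the DDC-gained regions had a median of 53.7% G and C and 5 CpG, against 61.3% and 21 under regions in all 12 lists and 53% and 7 over all promoters. Among windows with at most 5 CpG, AP-1 letters were in 9 of 32 (28.1%), against 149 of 1365 (10.9%) under regions in all 12 lists and 11.6% of 14100 such promoters.

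Promoters without AP-1 letters included several of genes for immune and inflammatory proteins, named here after their values were seen. The Tnf promoter, of the cytokine TNF, had 3.18, 2.90 and 3.00 in Fbxl5-deleted and 3.83, 3.52 and 2.61 in control DDC libraries, and no standard-diet library listed a peak. Casp4, an inflammatory caspase gene, had 2.89, 5.14 and 4.43 in Fbxl5-deleted and 3.86, 10.5 and 4.31 in control DDC libraries, with no standard-diet peak. The integrin gene Itga4, the interferon-inducible gene Ifi207, the platelet-activating factor receptor gene Ptafr and the B cell surface gene Cd72 also had such regions. Their folds on DDC ran from 2.86 to 7.76, and none had more than 2 standard-diet peaks. The summits at Itga4, Cd72 and Ptafr lay outside the window. A region upstream of Lamb3, a laminin gene of basement membranes, was the tallest after Fblim1 of those that touched a promoter window, but its summit lay at −586 bp from the start, outside the window. It had 7.71, 6.72 and 7.57 in Fbxl5-deleted and 7.47, 7.95 and 6.90 in control DDC libraries, against 1 standard-diet peak of 3.59 in control library 1.

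Most DDC-gained regions lay away from promoters. Only 2.41% were on a promoter window, against 17.1% of the 61659 regions in all 12 lists and 9.11% of all regions in at least 3 lists. Within 1 kb of either end of a protein-coding gene, its start included, there were 111 (4.96%), against 22.2% and 14.5%. The median distance to a gene start was 22173 bp, against 14053 and 18157.5 bp, and 71.0% were more than 10 kb away, against 57.5% and 64.4%. The span of a protein-coding gene held 52.5% of them, against 63.9% and 61.3%, and 365 (16.3%) had no such gene within 50 kb, against 10.3% and 12.2%. Exons and introns were not distinguished, as the annotation used gives only gene spans.

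DDC-gained regions were also narrower than regions in all 12 or in at least 3 lists, and their peaks mostly had 1 summit. Their median width on DDC was 258 bp, against 438 bp for regions in all 12 lists and 313 bp for regions in at least 3 lists. By DDC library it was 231 to 301 bp, against 264 to 300 bp for all peaks kept in those libraries. Several summits were listed for 2.81% of their peaks, against 29.7% for regions in all 12 lists and 24.6% for regions in all 6 DDC lists. Summits of a region spanned a median of 65 bp over the 6 DDC libraries, against 39 and 42 bp in these 2 sets. They stayed within 100 bp in 70.6% of the DDC-gained regions, against 79.9% and 78.7%. The DDC-gained regions were spread over the genome. Their shares of tested regions ran from 1.28% on chromosome 18 to 2.14% on chromosome 13 (136 of 6370), with 1.46% on X. The median distance to the nearest other DDC-gained region was 209227 bp, and 162 (7.23%) had one within 10 kb.

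The fold enrichment of the regions was moderate in every DDC library. Its median ran from 3.86 to 5.69 over the 6 DDC libraries, against 8.40 to 10.1 for regions in all 12 lists in the same libraries. For all peaks kept in these libraries it was 4.48 to 5.40. In Fbxl5-deleted DDC libraries the medians were 3.86, 4.34 and 3.94, and in control DDC libraries 4.78, 5.69 and 4.31. Control library 2 was the highest, and there the regions lay above the median of 5.40 of all its kept peaks. The standard-diet lists that held a peak there gave medians of 2.86 to 3.16. For comparison between libraries, log2 folds were ranked within each library and given the mean distribution of all 12. On this ranked log2 scale the mean over DDC libraries had a median of 2.06 and ran from 1.51 to 3.53, against a median of 3.07 for regions in all 12 lists. Just 27 regions (1.21%) lay above that 3.07.

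**Figure D2:**
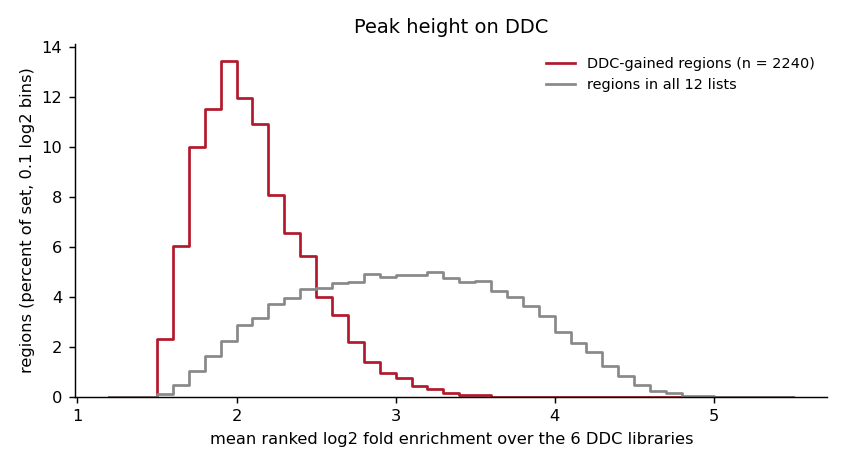
Distribution of the mean ranked log2 fold enrichment over the 6 DDC libraries (horizontal axis) for the 2240 DDC-gained regions (red) and the 61659 regions in all 12 lists (grey), in percent of each set per bin of 0.1. The red medians and range are 2.06 and 1.51 to 3.53, left of the grey median of 3.07.

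Absence on the standard diet was in part a matter of height. In a given standard-diet library, 0 to 25.4% of the regions had only a weaker peak. Of the 2240 regions, 1040 (46.4%) were in 0 of the standard-diet lists of strongest peaks, and 1200 (53.6%) were in 1. In the full deposited lists, which include the strongest peaks, 612 (27.3%) had no standard-diet peak of any height. Another 915 had one in 1 library, 548 in 2, 137 in 3, 26 in 4 and 2 in 5. Weaker peaks lay mostly in Fbxl5-deleted standard-diet libraries 1 and 3, with 518 and 570 regions, against 100 in library 2 and 92, 56 and 0 in the 3 control libraries. Those 2 libraries had the longest lists. Control library 3 had the shortest, of 137004 peaks, nearly all of which were kept, so its 0 follows from the length of its list. The median fold of such weaker peaks was 2.05 to 2.45.

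**Figure D3:**
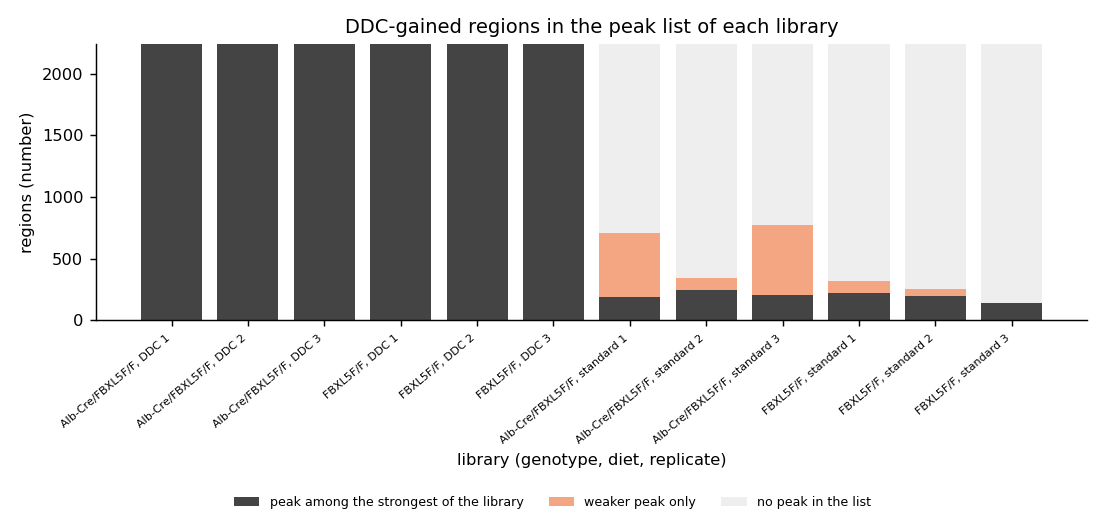
Number of the 2240 DDC-gained regions (vertical axis) with a peak among the strongest of the library (dark), with a weaker peak only (orange) and with none (light), for each of 12 libraries. Standard-diet libraries have 140 to 246 regions in the dark part, and the orange part reaches 518 and 570 in Fbxl5-deleted libraries 1 and 3.

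The lists differed between diets in ways that move with these counts. DDC lists held 168961 to 202874 peaks and standard-diet lists 137004 to 261938. Strong peaks, those whose −log10 q was 5 or more, numbered 70035 to 86730 on DDC, against 46942 to 70507 on the standard diet. The background inferred from the steps of the fold was 1.03 to 1.32 fragments on DDC, against 0.636 to 1.00, and the lowest kept fold was 2.54 to 2.84, against 1.43 to 2.47. Their part in the choice of regions was not tested. The opposite pattern, in all 6 standard-diet lists and at most 1 DDC list, had 446 regions. The labels name no batch.

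Within one genotype, the same pattern without any standard-diet list was more frequent in controls. Fbxl5-deleted mice had 3466 regions in 3 of 3 DDC and 0 of 3 standard-diet lists, 2.50% of tested regions, and controls had 5392, 3.89%. Shared by both were 1040, which is 30.0% of the Fbxl5-deleted set and 19.3% of the control set. These numbers also rest on the standard-diet lists, where Fbxl5-deleted libraries 1 and 3 had 46942 and 56364 strong peaks. Fbxl5-deleted library 2 had 68884, and the control libraries had 65933 to 70507. Neither the difference between the genotypes nor the part of these libraries in it was tested.

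The tallest regions were led by one within Chchd3, a gene of mitochondrial cristae (chromosome 6, 33008189 to 33008548, mm10). Its peaks reached 10.1, 7.94 and 11.7 in Fbxl5-deleted and 17.4, 15.4 and 13.0 in control DDC libraries, against 1.83, 4.00 and 2.29 in Fbxl5-deleted and no peak in control standard-diet libraries. Every control DDC value was above every Fbxl5-deleted one. Within Depdc5, which encodes a brake on mTORC1 signalling (chromosome 5, 32930774 to 32931321), the folds were 12, 11.8 and 9.85 in Fbxl5-deleted and 10.5, 19.2 and 10.8 in control DDC libraries. Standard-diet peaks there were 3.67 and 2.29, in Fbxl5-deleted libraries 1 and 3. Within Atg10, of autophagosome formation (chromosome 13, 91041250 to 91041685), the folds were 8.19, 14.9 and 8.86 in Fbxl5-deleted and 11.6, 14.4 and 10.8 in control DDC libraries, against 1 standard-diet peak of 1.72 in Fbxl5-deleted library 3. The genotypes overlapped at Depdc5 and Atg10.

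Others of the 12 tallest lay 12165 bp from Dock8, a gene known for its role in immune cells, 565 bp from the thyroglobulin gene Tg, and within Mbp and Taf4b, which encode myelin basic protein and a subunit of the general transcription factor TFIID. Dock8 had 8.68, 12.6 and 7.88 in Fbxl5-deleted and 14.0, 15.3 and 9.92 in control DDC libraries. The region at Taf4b had 8.19, 9.81 and 7.38 in Fbxl5-deleted and 9.66, 12.7 and 12.1 in control DDC libraries, and was the one of the 12 with no peak in any standard-diet list. Within Kdm1a, which encodes a histone demethylase, the folds were 7.71, 7.94 and 7.75 in Fbxl5-deleted and 9.81, 15.7 and 12.5 in control DDC libraries, against 2.45 and 2.29 in Fbxl5-deleted and 2.56 in control standard-diet libraries. Regions near Coq2 and Sc5d, of coenzyme Q and cholesterol synthesis, lay 31625 and 41569 bp from the genes. Those near the endocytic adaptor gene Epn2 and the kinase gene Lrrk1 lay 28337 and 41329 bp away. Over all 12, the lowest DDC fold was 4.92 and the highest standard-diet fold 4.00.

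**Figure D4:**
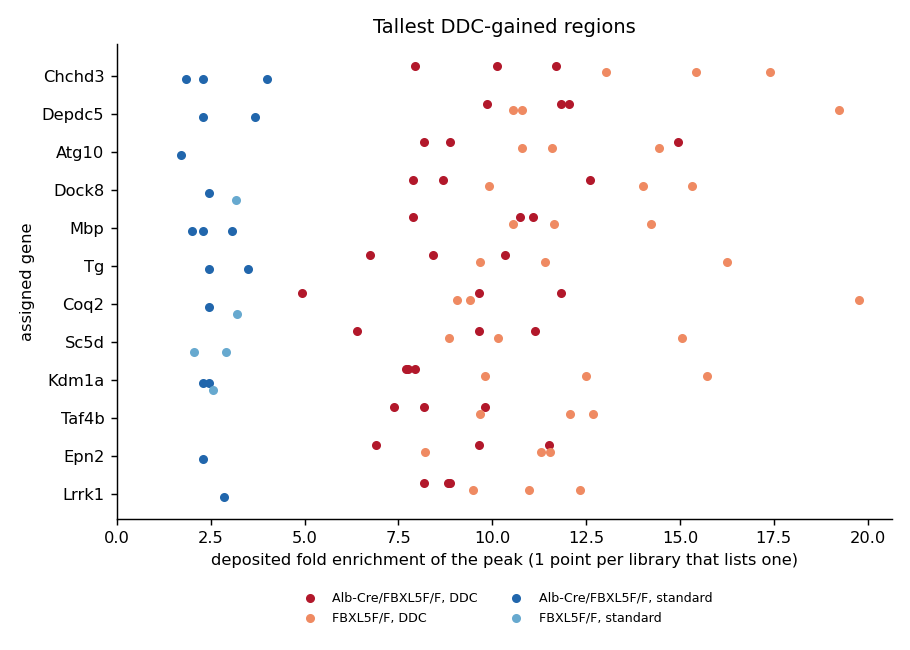
Deposited fold enrichment (horizontal axis) of the 12 tallest DDC-gained regions with an assigned gene, 1 point for each library that lists a peak: Fbxl5-deleted (dark red) and control (orange) on DDC, Fbxl5-deleted (dark blue) and control (light blue) on the standard diet. The DDC points start at 4.92 and the standard-diet points end at 4.00.

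Some genes held several of the regions. Of 1606 genes with at least 1, 217 had at least 2 and 41 at least 3. Sox5, a transcription factor gene, had 6 of its 90 tested regions, with the tallest at 4.34, 6.07 and 4.92 in Fbxl5-deleted and 5.80, 8.46 and 3.45 in control DDC libraries. Pde4d, a cyclic AMP phosphodiesterase gene, and Dab1, an adaptor gene of reelin signalling, had 5 each, of 103 and 53. Cdk6, Bach2, Nav2 and Cit had 4 each, of 43, 61, 92 and 22, and Mbp, Ralgapa2 and Hivep3 had 3 each. Cdk6, a kinase of the entry into the cell cycle, had folds between 2.59 and 5.24 at all 4 in the DDC libraries, while Bach2, a repressor of heme-responsive and lymphocyte genes, had 2.74 to 5.66. Long genes offer more regions, and these counts take no account of length.

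Gene lists are described by the share of their tested regions that were DDC-gained, beside the 1.62% over all tested regions. A region is assigned to the gene it overlaps or else to the nearest within 50 kb, which does not show that it acts on that gene. Early response genes, cell cycle genes, TGF-beta signalling and matrix genes stood above that share, and genes of bile acid synthesis, heme and the urea cycle had no such region. The lists are short, so a single region moves a share.

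Early response genes of the AP-1 list had 9 of 234 regions (3.85%), at Atf3, Klf4, Klf6, Egr2, Egr3, Dusp1, Fos and Myc. Near Klf4, a transcription factor gene (chromosome 4, 55541301 to 55542091, 8826 bp from the gene), the folds were 7.71, 7.01 and 5.42 in Fbxl5-deleted and 8.70, 12.3 and 6.90 in control DDC libraries, against 1 standard-diet peak of 3.67 in Fbxl5-deleted library 1. Near Atf3, a stress-induced transcription factor gene (chromosome 1, 191221938 to 191222368), they were 5.69, 7.16 and 5.67 in Fbxl5-deleted and 7.25, 9.20 and 9.93 in control DDC libraries, and the only standard-diet peak was 2.86. Near Fos, an AP-1 subunit gene, they were 3.92, 5.30 and 4.10 in Fbxl5-deleted and 4.72, 4.05 and 4.05 in control DDC libraries. Near Myc and near Dusp1, a phosphatase gene that limits MAP kinases, no standard-diet library listed a peak. Diets did not overlap at any of the 9, which the choice by diet makes likely for any DDC-gained region.

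Signalling lists differed in share. TGF-beta signalling had 10 of 299 (3.34%): 3 regions within Smad3, which carries the signal to the nucleus, 2 within its inhibitor Ski, and 1 each at the inhibitors Skil, Tgif1 and Pmepa1, the receptor gene Acvr1b and the ligand gene Tgfb2. The tallest, in Ski (chromosome 4, 155197724 to 155198033), had 5.92, 6.30 and 4.92 in Fbxl5-deleted and 6.29, 6.46 and 7.41 in control DDC libraries, against 1 standard-diet peak of 3.77. The 3 in Smad3 lay between 2.91 and 7.0 on DDC. The Notch pathway had 6 of 241 (2.49%), at the receptors Notch1 and Notch2, the coactivator Maml2 and the target Hes1. Maml2 (chromosome 9, 13563410 to 13564078) had 8.19, 5.61 and 7.38 in Fbxl5-deleted and 7.25, 11.8 and 9.06 in control DDC libraries. YAP and TEAD genes had 6 of 309 (1.94%), among them Ankrd1, a target of YAP, with 5.18, 6.5 and 7.22 in Fbxl5-deleted and 5.14, 6.71 and 4.43 in control DDC libraries. Growth factor receptors and MAPK feedback had 1 of 350 (0.286%), in Tgfa, an EGF receptor ligand gene, with 4.92, 4.82 and 3.72 in Fbxl5-deleted and 5.92, 4.26 and 4.87 in control DDC libraries.

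Inflammation genes stood near or below the overall share. NF-kB and chemokine genes had 4 of 226 (1.77%), 1 at Nfkb1, 1 at Tnf and 2 at Nfkbiz, a nuclear NF-kB cofactor. Acute phase and STAT3 genes had 2 of 190 (1.05%), near the IL-6 family receptor gene Il6st and in Lifr. The Il6st region (chromosome 13, 112425215 to 112425645) had 4.82, 8.41 and 6.89 in Fbxl5-deleted and 6.28, 13.1 and 10.8 in control DDC libraries, against 2.45 and 2.29 in Fbxl5-deleted and 3.07 in control standard-diet libraries.

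Duct and matrix genes included some of the taller regions. Of 229 regions of biliary genes 5 were DDC-gained (2.18%): 2 near Prom1, a surface marker of duct-like progenitor cells, 2 in Bicc1 and 1 near Cd44, a hyaluronan receptor gene. The taller one near Prom1 (chromosome 5, 44118054 to 44118354) had 5.78, 8.41 and 8.37 in Fbxl5-deleted and 13.2, 14.1 and 5.18 in control DDC libraries, against 2.45 in Fbxl5-deleted and 3.07 and 2.11 in control standard-diet libraries. Basement membrane, matrix and integrin genes had 10 of 324 (3.09%), among them regions at the laminin genes Lamb3 and Lamc1, the integrin genes Itga2 and Itga6, and Nid1, Hspg2, Adam9 and Timp1. Itga6, a laminin receptor subunit gene (chromosome 2, 71801663 to 71802175), had 6.27, 10.9 and 10.5 in Fbxl5-deleted and 7.13, 12.2 and 9.21 in control DDC libraries, against 2.45 and 2.29 in Fbxl5-deleted standard-diet libraries 1 and 3. Cytoskeleton genes had 7 of 241 (2.90%), led by one 192 bp from S100a6, a calcium-binding protein gene, with 5.30, 5.84 and 4.63 in Fbxl5-deleted and 4.59, 8.72 and 7.36 in control DDC libraries. It had peaks in 4 standard-diet libraries, 1.70 to 3.00.

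Iron genes had 9 of 323 regions (2.79%). Of these 4 belonged to the BMP and SMAD branch that controls hepcidin: 2 at the ligand gene Bmp6, 1 near Smad5 and 1 in Smad1. The others lay near the iron exporter gene Slc40a1, near Fth1 and Aco1, which encode the ferritin heavy chain and IRP1, and in Slc39a14 and Steap3, of iron import and reduction. Within Bmp6 (chromosome 13, 38422299 to 38422874) the folds were 6.27, 6.5 and 4.43 in Fbxl5-deleted and 5.80, 7.46 and 6.0 in control DDC libraries, and none of the standard-diet libraries listed a peak. Near Smad5 they were 7.24, 6.85 and 3.56 in Fbxl5-deleted and 5.57, 11.1 and 6.82 in control DDC libraries. Near Slc40a1 they were 3.86, 5.42 and 6.16 in Fbxl5-deleted and 4.61, 7.0 and 4.31 in control DDC libraries, against 1 standard-diet peak of 2.45. Genotypes overlapped at all 3 genes. Heme synthesis and breakdown had 0 of 88.

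Stress and growth lists held further examples. Cell cycle and p53 genes had 7 of 177 (3.95%), with 4 of them in Cdk6, and the others at Myc, Mdm2 and Ccne1. Near Ccne1, the cyclin E gene (chromosome 7, 38077150 to 38077621), the folds were 6.27, 5.14 and 6.88 in Fbxl5-deleted and 8.70, 13.9 and 9.85 in control DDC libraries, with 3 weaker standard-diet peaks of 2.29 to 2.64. Integrated stress response and ferroptosis genes had 6 of 172 (3.49%), at Atf5, Atf6, Tfeb, Gpx4 and Acsl4. Acsl4, whose enzyme makes lipids that are prone to oxidation, had 4.82, 5.14 and 5.42 in Fbxl5-deleted and 3.86, 6.57 and 4.74 in control DDC libraries. Hypoxia and metallothionein genes had 4 of 248 (1.61%) and NRF2 antioxidant genes 3 of 262 (1.15%), at Abcc4, Gclc and Cat. Near Egln1, an oxygen sensor gene, the folds were 3.37, 4.67 and 6.40 in Fbxl5-deleted and 5.80, 10.1 and 7.76 in control DDC libraries.

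Lists of hepatocyte function lay below the overall share. Bile acid synthesis had 0 of 196 regions and the periportal and urea cycle list 0 of 213. Bile acid and phospholipid transporters had 2 of 296 (0.676%), at Atp8b1 and within Abcc4, a basolateral exporter gene, where the folds were 5.58, 7.37 and 4.92 in Fbxl5-deleted and 5.88, 8.94 and 4.91 in control DDC libraries. Hepatocyte transcription factors had 3 of 552 (0.543%), at Nfib, Gata6 and Esrrg. Near Nfib the folds were 5.30, 8.41 and 7.38 in Fbxl5-deleted and 7.25, 10.5 and 6.90 in control DDC libraries, and no standard-diet library had a peak. Lipid metabolism had 5 of 557 (0.898%), with 6.27, 3.74 and 5.91 in Fbxl5-deleted and 6.76, 8.32 and 10.8 in control DDC libraries near Pparg, a fat-storage regulator gene. Drug metabolism had 2 of 233 (0.858%), near Cyp2b10 and in Cyp2c29, and pericentral genes 2 of 240 (0.833%), both at Znrf3, a Wnt inhibitor gene. The Cyp2b10 region had a peak of 4.89 in Fbxl5-deleted standard-diet library 1, within its DDC range of 3.45 to 5.03, so there the diets overlapped.

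**Figure D5:**
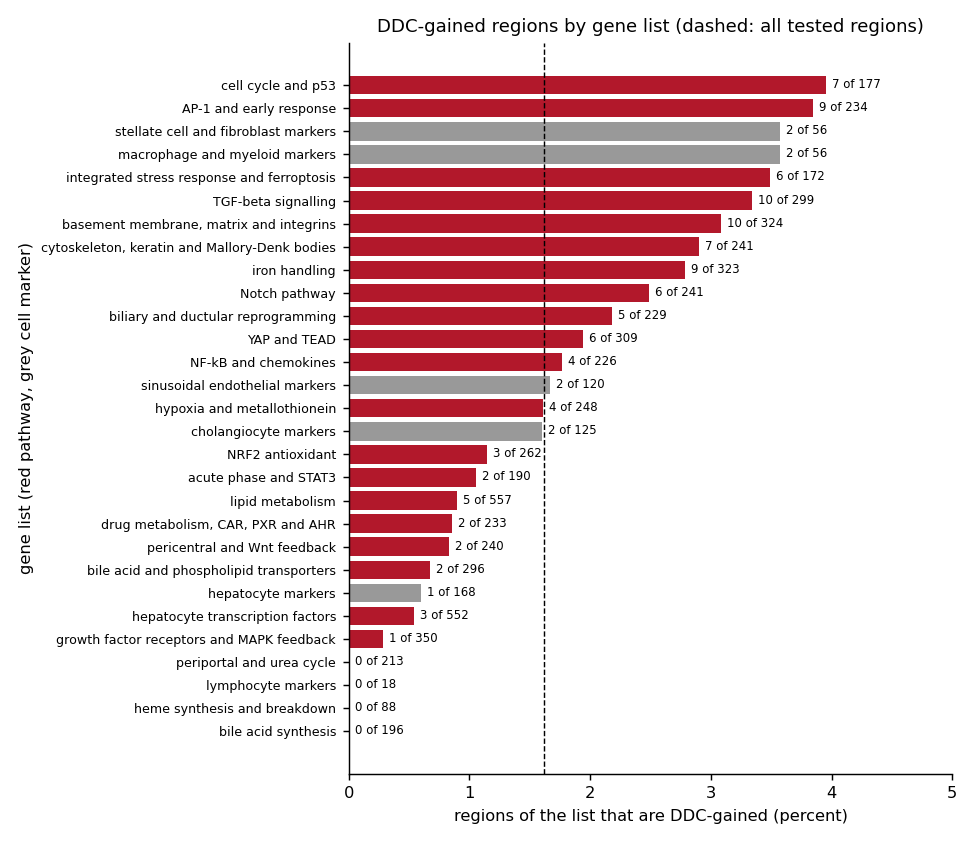
Percent of the tested regions of each gene list (horizontal axis) that are DDC-gained, for 23 pathway lists (red) and 6 marker lists of cell types (grey), with the numbers beside each bar. The dashed line is the 1.62% over all tested regions, and bars run from 0 to 3.95%.

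Each of the 16 hepatocyte markers had at least 1 tested region, and so did most markers of other liver cells. DDC-gained regions were 1 of 168 for hepatocyte markers (0.595%, in Asgr1) and 2 of 125 for cholangiocyte markers (1.60%, both in Bicc1). Macrophage and myeloid markers had 2 of 56 (3.57%, near Csf1r and Marco), stellate cell markers 2 of 56 (near Lrat and in Reln), endothelial markers 2 of 120 (1.67%, in Fcgr2b and Stab2) and lymphocyte markers 0 of 18. Fcgr2b (chromosome 1, 170962218 to 170962658) was the tallest of them, with 7.23, 7.01 and 5.42 in Fbxl5-deleted and 12.9, 12 and 8.0 in control DDC libraries, against 1 standard-diet peak of 2.45. No region was tested at Krt19, Clec4f, Timd4, Lum or 6 of 11 lymphocyte genes.

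Heights were also summed over the tested regions of each list. The DDC-gained regions are among these, and the rule chose them by diet, which by itself favours higher sums on DDC. Their part in each gap was not worked out. In these sums a region without a peak does not count as log2 1.27, its value in the genotype test, so they are not sums of the tested values. The sums of 4 of the 6 marker lists did not overlap between the diets, and neither did those of several pathway lists given below. Macrophage markers summed to 44.2 to 49.7 in Fbxl5-deleted and 51.4 to 54.5 in control DDC libraries, against 35.3 to 42.6 in Fbxl5-deleted and 41.4 to 41.9 in control standard-diet libraries. Stellate markers summed to 48.9 to 54.9 in Fbxl5-deleted and 55.4 to 63.5 in control DDC libraries, against 33.4 to 42.1 in Fbxl5-deleted and 38.6 to 42.1 in control standard-diet libraries. Hepatocyte markers ran the other way, at 110 to 129 in Fbxl5-deleted and 107 to 120 in control DDC libraries, against 131 to 156 in Fbxl5-deleted and 131 to 138 in control standard-diet libraries. Endothelial markers, at 122 to 132 on DDC and 108 to 124 on the standard diet, and cholangiocyte markers, at 112 to 123 on DDC and 99.6 to 121 on the standard diet, overlapped. Lymphocyte markers were at 17.7 to 20.5 on DDC and 20.9 to 23.1 on the standard diet, without overlap. Such gaps were not particular to marker lists. Bile acid synthesis genes summed to 143 to 158 on DDC and 162 to 177 on the standard diet. YAP and TEAD genes summed to 284 to 301 and 254 to 274. Heme genes summed to 80.3 to 84.8 and 94.5 to 99.8, and NRF2 genes to 237 to 250 and 261 to 269. TGF-beta genes summed to 293 to 299 and 265 to 289, and Notch genes to 218 to 232 and 194 to 216. Matrix genes summed to 309 to 341 and 283 to 302. The remaining pathway lists overlapped, such as iron handling, at 313 to 329 and 314 to 325. The part of other cell types in the DDC-gained regions was not tested.

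The rule did not compare genotypes, but it asked for a peak in all 6 DDC libraries. A region open on DDC in a single genotype was thus left out in advance, which limits the differences that can be found. Within that limit the genotypes were compared on DDC. No DDC-gained region passed the test between Fbxl5-deleted and control DDC libraries (limma on ranked log2 fold enrichment of all 12 libraries, two-sided, Benjamini-Hochberg adjusted p under 0.05), and 0% of the 138502 tested regions passed in either direction. The lowest adjusted p among the 2240 was 0.305 in limma. At an unadjusted p under 0.05, 28 of the regions were higher in Fbxl5-deleted libraries (1.25%) and 264 lower (11.8%), against 2.25% higher and 3.7% lower over all tested regions. The difference was below 0 for 1554 regions (69.4%), against 48.0% of all tested regions and 48.4% of regions in all 6 DDC lists. Its median was −0.14 log2, against 0.00. Control DDC library 2, the highest of the 6, carried part of this: without it the median was −0.08 and 1346 regions were below 0. The 3 mice of a group set how small a difference can pass, so these results do not show that the genotypes are alike.

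The largest differences in each direction, none of which passed, are given for size. A region 4558 bp from Sgip1, an endocytic protein gene (chromosome 4, 102736255 to 102736744), had folds of 3.37, 2.80 and 2.95 in Fbxl5-deleted and 6.76, 13.6 and 6.47 in control DDC libraries, without overlap. Its difference was −1.39 ± 0.26 log2 (SE, n = 3 against 3, limma, adjusted p = 0.305). Regions in Shisa9 and in Slc24a3, a cation exchanger gene, differed by −1.25 ± 0.26 and −1.21 ± 0.28 (limma, adjusted p = 0.305 for both), also without overlap. In the other direction, a region in Arhgap22, a RAC-inactivating protein gene, had 7.88, 5.75 and 3.98 in Fbxl5-deleted and 3.10, 4.75 and 3.02 in control DDC libraries, a difference of 0.74 ± 0.26 (limma, adjusted p = 0.604) with overlap. Regions near E330034G19Rik and in Rps6ka2, a ribosomal S6 kinase gene, differed by 0.72 ± 0.24 and 0.68 ± 0.28 (limma, adjusted p = 0.587 and 0.736).

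At the edge of the rule, the tallest regions with an assigned gene just outside it and the lowest inside it are given. Just outside it, with peaks in 2 standard-diet lists, a region in Inpp5a, an inositol phosphatase gene (chromosome 7, 139461349 to 139461726), had 18.8, 22.0 and 9.85 in Fbxl5-deleted and 18.5, 25.9 and 16.4 in control DDC libraries, and a mean ranked value of 4.11, above the highest inside. On the standard diet it had 7.34 and 2.29 in Fbxl5-deleted libraries 1 and 3 and 5.63 in control library 1. A region in Fam180a, also outside, had 9.48 in the lowest DDC library, and 2.86 and 4.75 on the standard diet. The lowest inside was near B3gnt7, with 2.80 to 3.37 on DDC and no standard-diet peak. In all, 1358 regions were in all 6 DDC lists and 2 standard-diet lists. Their mean ranked value had a median of 2.09, so the 2 named are not typical of them. Another 2732 were in 5 DDC lists and at most 1 standard-diet list.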

How the data were processed

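Peak lists of 12 ATAC-seq libraries, 1 per mouse, were used. Per the submitters' processing notes, the tools were MACS2, Bowtie2, fastp, Picard, SAMtools, deepTools and bedtools, without versions, and the build was mm10. On tool order, settings and any transposase shift, nothing is given in the sources used here. The authors deposited 1 list per library and pooled no replicates. The deposited fold enrichment is a ratio of peak height to the caller's background, and the score, the −log10 p-value, the −log10 q-value and the summit position are the caller's own. The lists hold no counts, so sequencing depth is unknown.

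Lines with equal chromosome, start and end were joined. On chromosomes 1 to 19 and X, the strongest peaks of each library by fold enrichment, equal in number and just under the 137004 of the shortest list, were kept and merged at an overlap of 1 bp. A region's fold is that of its strongest peak. For the test, log2 fold enrichment was ranked within a library and mapped to the mean distribution over the 12 libraries, with absence at the lowest value, log2 1.27. Ranking hides a shift that all regions share. Regions in at least 3 lists were fitted with limma 3.58.1 in R 4.3.3 (lmFit, then eBayes with trend and robust settings, 4 group means, no covariates), and regions with a Benjamini-Hochberg adjusted p under 0.05 were called. The fit was tested on simulated data. Python 3.11.15 with numpy 2.4.6, pandas 2.3.3, scipy 1.17.1 and matplotlib 3.10.9 did the rest.

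Regions were assigned to the shortest protein-coding gene span they overlap, or else to the nearest within 50 kb (RefSeq, GRCm38.p6). Promoter windows were in hand for 17273 of 21627 protein-coding genes. No genome sequence was used, so the letters of other regions are not shown. The regions, gene lists and motifs were chosen with earlier results of these data known. Named were the 12 tallest regions with a gene, the tallest of each gene list, the 10 genes with the most regions and the 3 largest genotype differences each way. At the rule's edge, the tallest regions with a gene just outside and the lowest inside were named. A few items that this rule or the lists name are not reported here. Replicate numbers were not used as pairs in the main fit. Alternatives changed the number of peaks kept, their order, the overlap, the libraries used, the value tested and the fit.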

Additional observations from a re-analysis of the deposited data

How the results depend on the processing

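The number of DDC-gained regions was 2240, and 1040 when no standard-diet list was allowed. Leaving out 1 library gave 2369 to 3001, and leaving out Fbxl5-deleted standard-diet libraries 1 and 3 together gave 3103. It was 1852 with 100000 peaks per library, 3127 with all deposited peaks, 2251 ordered by −log10 p, 2776 with a −log10 q of at least 2, 2411 with 50% overlap and 2125 in 500 bp windows. With all deposited peaks the opposite pattern had 317 regions and the median width was 232 bp. Between genotypes on DDC, limma called 0 regions, and 1 of all tested regions with −log10 p ranked; leaving out 1 DDC library gave 0 to 1, with 1 without control replicate 3. The cause was not tested. DDC-gained regions had 0 calls in each of these fits, and their median difference ran from −0.19 to −0.08 on leaving out 1 DDC library. It was −0.22 without ranking, where all tested regions had a median of −0.06. The 6 named differences kept their direction and were not called under 84 alternative values. With the replicate number as a block, 0 regions were called and the median difference was −0.14. Deviations from the group means correlated at −0.02 to 0.06 between same-numbered libraries of different groups, with a median of 0.014. Between other libraries of different groups they correlated at −0.04 to 0.03, with a median of −0.004. These values are small, and they do not settle whether the numbers mark a pairing.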
